A study of Mus musculus with 8 samples.

Results

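The SLC25 family is the set of carriers that move metabolites across the inner membrane of the mitochondrion, and it was followed here from the mouse 8-cell embryo to the blastocyst. Members were all genes whose symbol starts with Slc25a, together with the uncoupling proteins Ucp1, Ucp2 and Ucp3, read from the array's probe sets that carry exactly 1 gene symbol. Of 18193 genes on the array, 46 were members, measured by 96 probe sets, and where a gene had several the brightest was used. Probe sets with a single symbol were not found for Ucp2, Slc25a21, Slc25a43 or Slc25a52, which are not analysed here. Of the 46 members, 42 passed the filter on dim signals and were tested.

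The inner mitochondrial membrane is closed to most charged metabolites, so fuels, nucleotides and cofactors enter and leave through these carriers, each of which has its own substrates. They export ATP in exchange for ADP, bring in phosphate, pass reducing power from the cytosol through the malate-aspartate shuttle, and deliver iron, glutathione and cofactors. Early cleavage embryos of the mouse depend on pyruvate and lactate as fuels, and glucose use rises towards the blastocyst.

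The arrays are 1-colour oligonucleotide arrays of RNA from whole wild-type B6D2F1 embryos, collected as 1-cell zygotes of a B6D2F1 by B6D2F1 cross and cultured in KSOM medium at low oxygen. There were 4 arrays of 8-cell embryos (embryonic day 2.5, 66 h after the hCG injection that times ovulation) and 4 of blastocysts (embryonic day 4.5, 120 h after hCG). No treatment or mutation separated the stages. How many embryos made up a sample, and whether samples came from separate pools, is not stated in the labels, and the p-values therefore reflect the scatter among these arrays, part of which may be technical. Signals had been scaled to the same trimmed mean on each array, so a rise or fall is relative to the other signals of that array and is not an amount per embryo. Differences are the blastocyst value less the 8-cell value of log2(signal + 16), each with its standard error (SE), and this scale understates the change of dim genes. Means carry the SD of the 4 arrays in a stage. Adjusted p-values come from limma, with the Benjamini-Hochberg correction over every tested gene. A gene passed at an adjusted p under 0.05.

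Of the 42 tested members, 30 passed, 16 of them higher and 14 lower in blastocysts. Over all 13276 tested genes 71.7% passed, 37.5% higher and 34.2% lower, so the share of members that passed (71.4%) lay at the background. By size, 23 members (54.8%; 12 higher and 11 lower) passed with at least a 2-fold difference, against 45.8% of all genes (25.4% higher and 20.4% lower), and 12 members passed with at least a 4-fold difference, against 18.3% of all genes. Whether the members' sizes differ from those of other genes was not tested. Of the 30, Slc25a37 and Slc25a41 passed the filter only through the stage where they were high, so their calls, both also among the 12, do not count as support. Slc25a31 had 1 of 4 blastocyst arrays above the filter's level and needed its 8-cell arrays to pass the filter. Its call does not count as support either. The median size of the difference, taken without its sign, was 1.23 among the tested members and 0.90 among all genes. Stages did not overlap in 30 members, and in 66.8% of all genes. The arrays read whole embryos, so fewer cells of a type and less RNA per cell cannot be told apart.

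**Figure D1:**
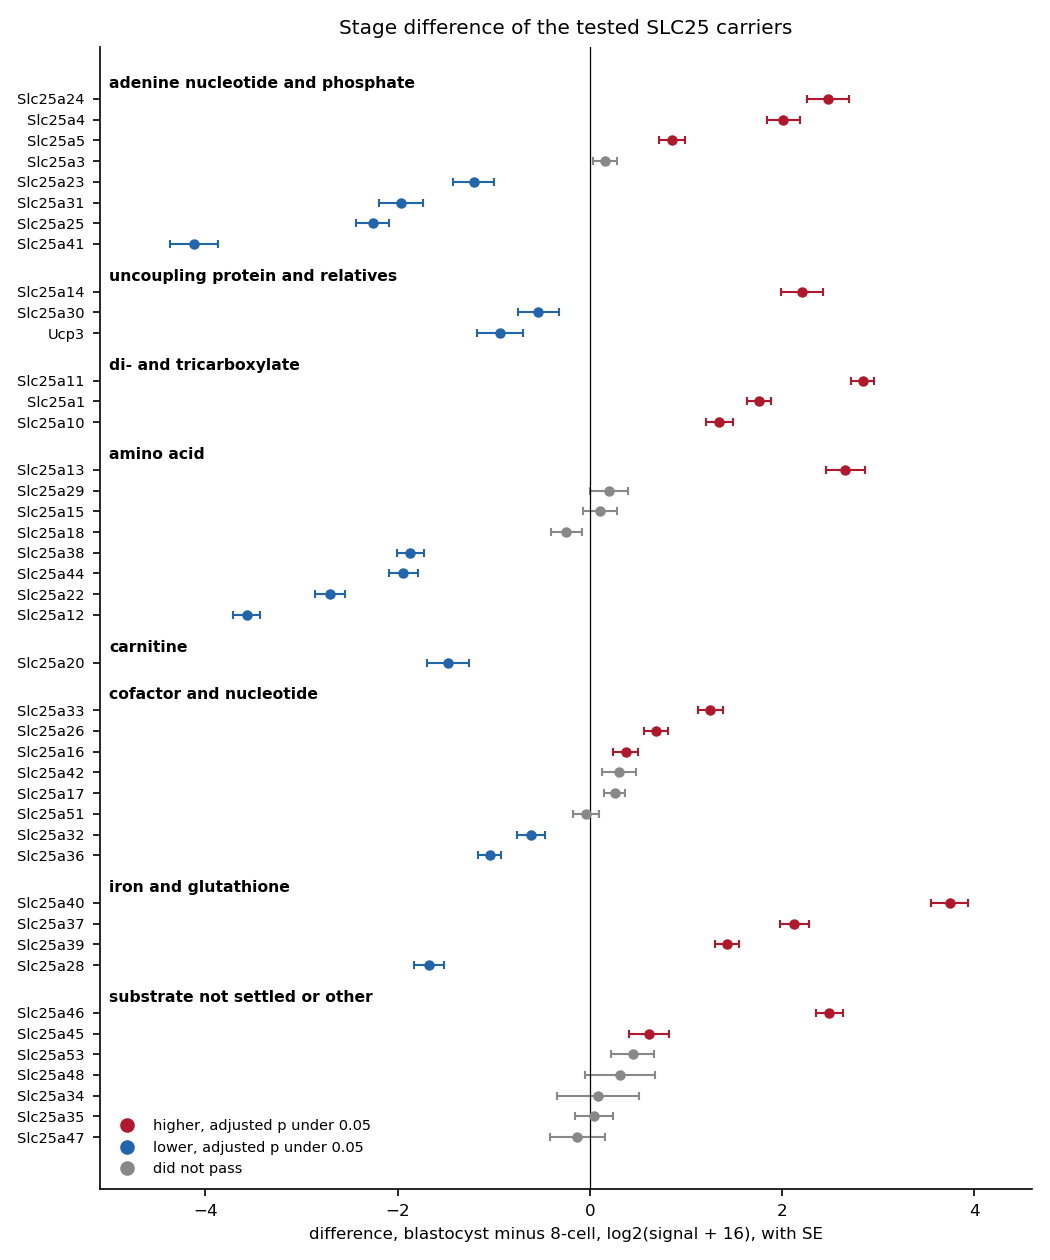
Difference between blastocyst and 8-cell embryos for the 42 tested SLC25 carriers, grouped by substrate, on the log2(signal + 16) scale (x axis; points are fitted differences of 4 against 4 arrays, bars are the SE). The values run from -4.12 for Slc25a41, which was under the filter level in blastocysts, to 3.74 for Slc25a40, the 3 di- and tricarboxylate carriers all lie to the right of 0, and the amino acid group holds 4 lower members and 1 higher. Over all tested genes 37.5% were higher and 34.2% lower.

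Several pairs of carriers with related substrates moved in opposite directions, and the sequences upstream of 4 of these genes are given first. The windows below are those of the aspartate-glutamate carriers Slc25a12 and Slc25a13 and the pyrimidine nucleotide carriers Slc25a33 and Slc25a36, chosen because each pair moved in opposite directions and each gene has a single listed start. Each is the 250 bases before the RefSeq start site of GRCm38.p6, 5′ to 3′ along the gene, with matches to CACGTG, the E-box read by several helix-loop-helix factors, in capitals.
Slc25a12, chr2:71367756-71368005, minus strand: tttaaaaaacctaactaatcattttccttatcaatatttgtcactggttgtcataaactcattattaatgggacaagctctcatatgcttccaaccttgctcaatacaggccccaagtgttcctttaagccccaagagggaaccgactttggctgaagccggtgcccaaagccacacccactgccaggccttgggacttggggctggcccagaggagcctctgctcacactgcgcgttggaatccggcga
Slc25a13, chr6:6217174-6217423, minus strand: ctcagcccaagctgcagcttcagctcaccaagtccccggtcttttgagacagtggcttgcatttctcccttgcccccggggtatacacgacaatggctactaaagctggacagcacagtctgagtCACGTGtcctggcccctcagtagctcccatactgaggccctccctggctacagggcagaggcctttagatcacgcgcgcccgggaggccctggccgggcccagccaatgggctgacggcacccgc
Slc25a33, chr4:149774268-149774517, minus strand: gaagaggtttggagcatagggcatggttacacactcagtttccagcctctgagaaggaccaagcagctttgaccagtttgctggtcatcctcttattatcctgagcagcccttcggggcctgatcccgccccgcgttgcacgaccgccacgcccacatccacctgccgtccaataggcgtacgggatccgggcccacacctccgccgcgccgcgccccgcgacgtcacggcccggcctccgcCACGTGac
Slc25a36, chr9:97111042-97111291, minus strand: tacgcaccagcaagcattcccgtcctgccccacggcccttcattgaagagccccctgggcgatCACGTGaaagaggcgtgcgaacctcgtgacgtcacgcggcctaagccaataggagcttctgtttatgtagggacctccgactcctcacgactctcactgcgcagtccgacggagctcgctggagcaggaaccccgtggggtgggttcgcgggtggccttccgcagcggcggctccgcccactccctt
The Slc25a12 window held no CACGTG and had a GC content of 49.6%, with 6 CpG dinucleotides. The Slc25a13 window held 1, starting 125 bases before the start site (GC 62.8%, 11 CpG), that of Slc25a33 held 1 at 8 bases (64.4%, 23 CpG) and that of Slc25a36 held 1 at 187 bases (64.4%, 24 CpG). None of the 4 windows held GCCNNNGGC, the palindrome bound by AP-2 factors, the family of the factor in the series title. Over the 45 listed windows of 36 member genes, CACGTG was in 8 (17.8%) and GCCNNNGGC in 7 (15.6%), against 6.02% and 13.7% of the 32851 windows of all genes. The 8 windows with CACGTG belonged to 7 genes, since a gene can have several listed starts. Whether the shares of members differ from those of all genes was not tested. Both motifs read the same on either strand and were searched in the 250 bases alone. A match is a description of the letters and not of a bound site, and CACGTG stood upstream of members that were higher (Slc25a1, Slc25a13, Slc25a14, Slc25a33), lower (Slc25a31, Slc25a36) and not past the test (Slc25a15).

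The aspartate-glutamate carriers showed the widest split between related members. They send aspartate out of the mitochondrion in exchange for glutamate, the step that drives the malate-aspartate shuttle, and both are regulated by calcium. Slc25a12, which encodes aralar, gave signals of 5597, 6313, 5259 and 6928 on the 8-cell arrays and 418, 554, 475 and 523 on those of blastocysts. It was therefore high in each 8-cell sample and low in each blastocyst sample, with no overlap, and fell 11.9-fold (log2 difference -3.57, SE 0.14, adjusted p = 4.52e-08). Slc25a13, which encodes citrin, read 241, 185, 132 and 120 in 8-cell embryos and 1080, 1312, 1063 and 1038 in blastocysts. The direction was the reverse, again without overlap, and the rise was 6.31-fold (2.66, SE 0.20, adjusted p = 2.11e-06). Taken as the log2 value of Slc25a12 minus that of Slc25a13 on each array, the balance went from 5.06 ± 0.50 to -1.16 ± 0.16 (SD, n = 4), a change of -6.23 (exact two-sided permutation test over the 70 assignments of arrays to stages, p = 0.0286, which is the floor for groups of 4 and 4; adjusted p = 0.0286 over 9 pairs). All 9 pairs, chosen with earlier results of these data known, sat at this floor. Where both genes separated the stages in opposite directions, as here, the floor was fixed in advance. The pair p-values here and below are thus not separate support. The 9 include Slc25a28 with Slc25a37, whose change is given without a test. Slc25a12 had dimmer probe sets as well, at -0.73 (SE 0.25, adjusted p = 0.0261 among all probe sets) and 0.24 (SE 0.26, adjusted p = 0.425). With the mean over all its probe sets the gene gave -1.35, and with each gene read that way the change of the pair was -4.01. The balance at a single stage does not rank the genes, since each probe set has its own brightness.

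**Figure D2:**
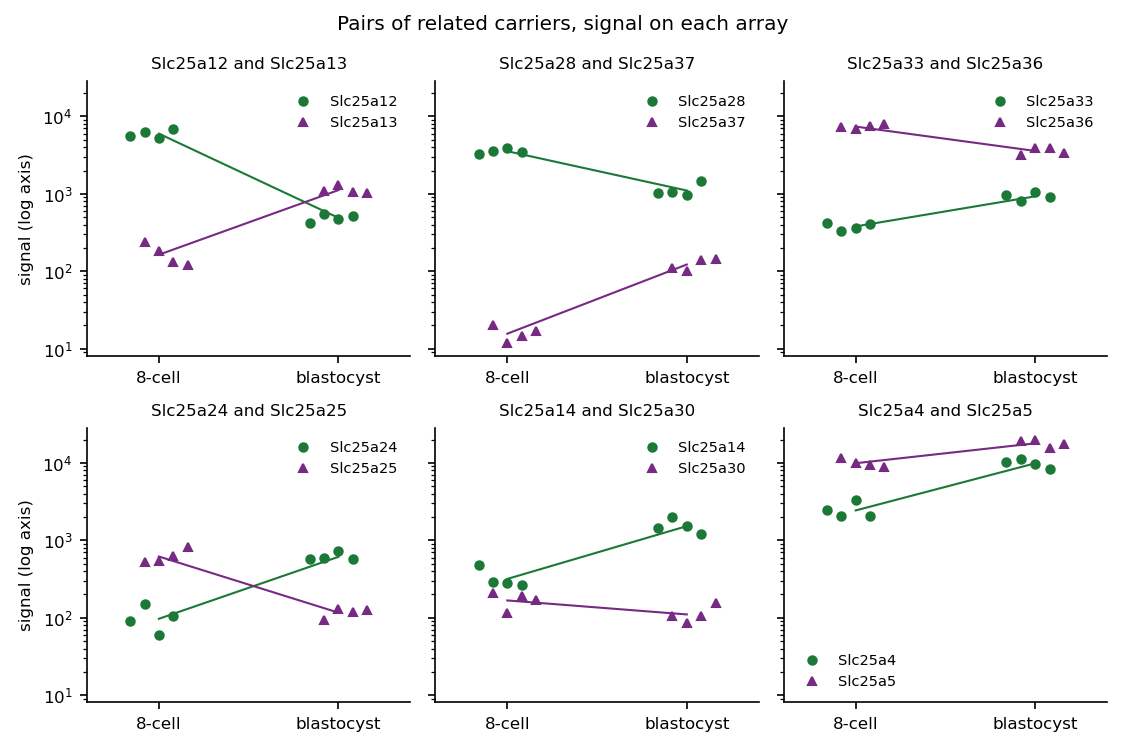
Signal on each array (y axis, log scale) for 6 pairs of related carriers in 8-cell embryos and blastocysts, with 4 arrays a stage; each point is an array and lines join the stage means of log2(signal + 16). Heights of different genes are not comparable, since each probe set has its own brightness; the slopes are opposite in 5 panels and both upward for Slc25a4 and Slc25a5.

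The other amino acid carriers that passed all fell. Slc25a22, a glutamate carrier, read 1343, 1578, 1535 and 2079 in 8-cell embryos and 248, 214, 270 and 212 in blastocysts. The stages were far apart on each array, and the fall was 6.5-fold (-2.70, SE 0.16, adjusted p = 3.63e-07). Its relative Slc25a18 was dim, at 48.8 ± 9.44 and 38.8 ± 7.70 (-0.24, SE 0.16, adjusted p = 0.194), and the change of Slc25a18 relative to Slc25a22 was 2.46 (exact permutation p = 0.0286, adjusted p = 0.0286). Slc25a44, a carrier of branched-chain amino acids, went from 3304 ± 647 to 840 ± 74.1 (-1.94, SE 0.15), and another bright probe set of it gave -3.38 (SE 0.19). A dim probe set of Slc25a44, at 43.2 ± 21.5 and 56.0 ± 4.12, did not pass (0.36, SE 0.25, adjusted p = 0.221 among all probe sets). Slc25a38, which brings in glycine for heme synthesis, went from 1383 ± 187 to 366 ± 40.8 (-1.87, SE 0.14). Slc25a15, the ornithine carrier of the urea cycle, did not pass on its brightest probe set (1526 ± 367 and 1609 ± 54.1; 0.11, SE 0.17, adjusted p = 0.598), while a dimmer one was lower (-1.31, SE 0.20). Slc25a29, a carrier of basic amino acids, did not pass either (0.20, SE 0.20, adjusted p = 0.390), while a dimmer probe set was higher (0.44, SE 0.17, adjusted p = 0.0449). This group of 8 tested members thus held 1 that rose, 4 that fell and 3 that did not pass. The share that passed was 62.5%, against 71.7% of all genes (37.5% higher and 34.2% lower).

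The carriers of di- and tricarboxylates all rose, 3 of 3 tested, against 37.5% of all tested genes. Whether this or any other substrate group differs from other genes was not tested. Slc25a11, the oxoglutarate-malate carrier that completes the malate-aspartate shuttle, read 318, 288, 294 and 335 in 8-cell embryos and 2010, 2394, 2290 and 2541 in blastocysts. No blastocyst array came near the 8-cell values, and the rise was 7.15-fold (2.84, SE 0.12, adjusted p = 6.72e-08). Slc25a1, which exports citrate for the synthesis of lipids, read 141, 203, 172 and 180 and then 630, 603, 624 and 628. Its blastocyst arrays were tightly grouped and all above the 8-cell arrays (1.76, SE 0.13, adjusted p = 1.31e-06). Slc25a10, the dicarboxylate carrier that exchanges malate or succinate for phosphate, went from 1187 ± 157 to 3038 ± 344 (1.35, SE 0.14), and its dimmer probe set, at 137 ± 24.7 and 844 ± 75.0, rose more steeply. The carnitine-acylcarnitine carrier Slc25a20, which brings long-chain fatty acids to beta-oxidation, went the other way. It read 9622, 6794, 9967 and 6666 in 8-cell embryos and 2865, 3823, 3133 and 2080 in blastocysts. Values varied within each stage but did not overlap, and the fall was 2.78-fold (-1.48, SE 0.22, adjusted p = 0.000172).

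The ADP/ATP carriers exchange the ATP made in the matrix for cytosolic ADP, and their main forms rose. Slc25a4 (ANT1) read 2498, 2038, 3296 and 2093 in 8-cell embryos and 10264, 11391, 9776 and 8367 in blastocysts. The lowest blastocyst array was above the highest 8-cell array, and the rise was 4.04-fold (2.01, SE 0.18, adjusted p = 5.05e-06). Slc25a5 (ANT2), the form of proliferating cells, read 11742, 9901, 9305 and 8917 and then 19160, 19494, 15667 and 17639. It too was higher on each blastocyst array (0.85, SE 0.13, adjusted p = 0.000263), and its 7 other probe sets gave differences of 0.85 to 1.94 (1.39 with the mean over them all). The log2 value of Slc25a4 rose by 1.16 more than that of Slc25a5 (exact permutation p = 0.0286, adjusted p = 0.0286), but when each gene was read as the mean over its probe sets the gap was 0.31 (adjusted p = 0.171), and leaving out blastocyst replicate 1, 2 or 3 gave an adjusted p = 0.0571. The probe sets used for these genes carry the array's _x_at suffix, which marks probes that can bind related transcripts. Slc25a31 (ANT4), the form of the germ line, was lower in blastocysts, with 254, 124, 121 and 125 in 8-cell embryos and 26.1, 32.4, 27.7 and 19.3 in blastocysts (-1.96, SE 0.23). Only 1 of its 4 blastocyst arrays was above the filter's level, the 40th percentile of the array, so the size depends on the added 16 (-1.24 with 64 added). The gene needed its 8-cell arrays to pass the filter, and its difference is given without a test. Slc25a3, the phosphate carrier that supplies ATP synthase, was bright at both stages, at 19832 ± 2193 and 22067 ± 1751, and did not pass (0.16, SE 0.13, adjusted p = 0.286). Its direction depended on the choice: it was higher with quantile scaling (0.40, adjusted p = 0.00386) and lower without probe sets of the _x_at, _s_at and _a_at types (-0.66). The lower value came from a far dimmer probe set, at 80.5 ± 15.6 in 8-cell embryos and 45.2 ± 9.56 in blastocysts.

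The ATP-Mg/phosphate carriers set the size of the matrix pool of adenine nucleotides rather than exchanging ATP for ADP, and most respond to cytosolic calcium. Slc25a24 rose while Slc25a23 and Slc25a25 fell, and Slc25a41 was below the filter's level in blastocysts. Slc25a24 read 90.5, 149, 60.1 and 107 in 8-cell embryos and 571, 584, 729 and 579 in blastocysts, a clear separation (2.47, SE 0.22, adjusted p = 5.53e-06; 1.65 with the mean over its probe sets). Slc25a25 read 524, 535, 631 and 826 and then 94.7, 129, 119 and 127, with each blastocyst array below each 8-cell array (-2.26, SE 0.17, adjusted p = 1.78e-06). A dim probe set of Slc25a25 had the opposite call (0.89, SE 0.28, adjusted p = 0.0163), and the mean over its probe sets gave -1.10. Slc25a41, the relative without the calcium-binding part, read 311, 345, 359 and 543 in 8-cell embryos and 4.18, 3.19, 3.09 and 20.6 in blastocysts. All 4 blastocyst arrays were under the filter's level, and the gene passed the filter only through the 8-cell arrays. Its fitted difference, -4.12 with 16 added and -2.64 with 64 added, is set by the constant and is given without a test. Slc25a23 went from 190 ± 51.6 to 71.3 ± 12.7 (-1.21, SE 0.21, adjusted p = 0.000577). The change of Slc25a24 relative to Slc25a25 was 4.73, and that of Slc25a23 relative to Slc25a24 was -3.68 (exact permutation p = 0.0286 and adjusted p = 0.0286 for each, again fixed at the floor). When each gene was read as the mean over its probe sets the former was 2.75.

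Among the carriers of iron and glutathione, Slc25a39 and Slc25a40 rose and Slc25a28 fell. The call of Slc25a37 is not counted, for the reason given with its signals below. Mitoferrins import iron for heme and iron-sulfur clusters. Slc25a28, mitoferrin 2, the widely expressed form, read 3281, 3545, 3964 and 3459 in 8-cell embryos and 1015, 1050, 959 and 1452 in blastocysts. The stages did not overlap (-1.67, SE 0.15, adjusted p = 6.28e-06). Slc25a37, mitoferrin 1, the form best known from red cell precursors, read 20, 11.7, 14.7 and 16.7 and then 109, 99.9, 140 and 146. It was under the filter's level on each 8-cell array and above it on each blastocyst array, and so passed the filter only through blastocysts. Its fitted difference, 2.13 with 16 added and 1.23 with 64 added, is set by the constant and is given without a test, as is the change of Slc25a28 relative to it (-3.80 with 16 added). Slc25a39, which imports glutathione into mitochondria, was bright and rose, at 7204, 6407, 6265 and 5515 in 8-cell embryos and 18027, 17698, 15652 and 16755 in blastocysts. All blastocyst arrays were above all 8-cell arrays, and its 4 tested probe sets were all higher, by 1.43 (SE 0.12) for the brightest up to 2.94. Its close relative Slc25a40 had the largest rise of the family, with 251, 287, 146 and 258 in 8-cell embryos and 3476, 2968, 3512 and 3113 in blastocysts. Each blastocyst array was more than 10 times the highest 8-cell array, and the fold was 13.4 (3.74, SE 0.20, adjusted p = 2.01e-07). Slc25a39 changed by -2.32 relative to Slc25a40 (exact permutation p = 0.0286, adjusted p = 0.0286).

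**Figure D3:**
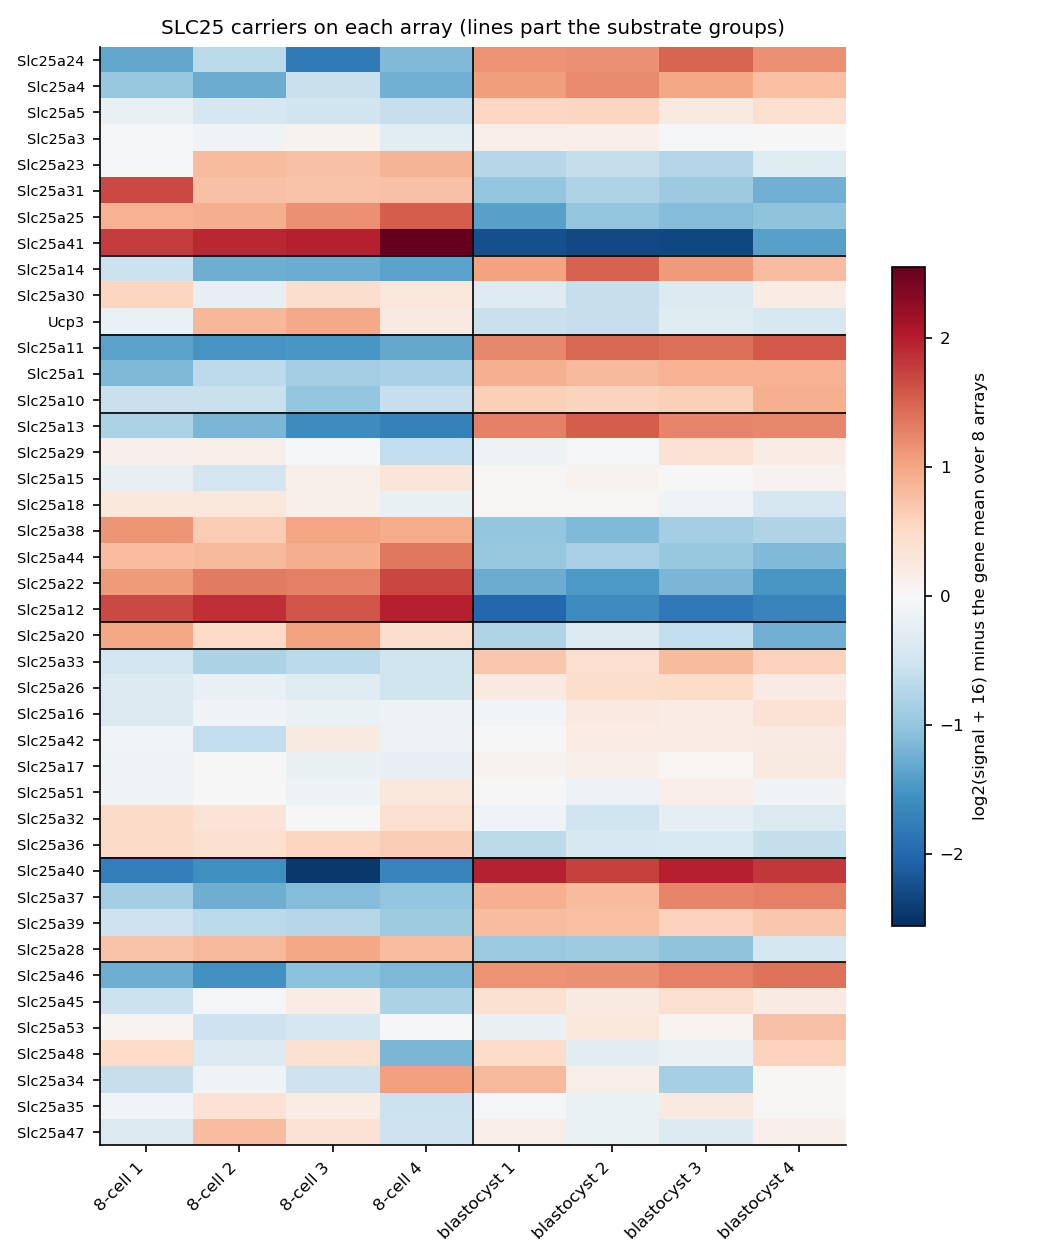
The 42 tested SLC25 carriers (rows, grouped by substrate in the order of the plot of differences) on each of the 8 arrays (columns); colour is log2(signal + 16) minus the gene's mean over the arrays. In most groups red and blue rows stand side by side, and arrays of a stage look alike for the members with large differences, among them Slc25a41, Slc25a12 and Slc25a40.

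Among the carriers of cofactors and nucleotides 3 of 8 tested members rose, 2 fell and 3 did not pass on the brightest probe set. The share that passed was 62.5%, against 71.7% of all genes. There, 2 of the 8 passed with at least a 2-fold difference (25%, against 45.8% of all genes). Those 2 were the carriers of pyrimidine nucleotides, which feed the synthesis of mitochondrial DNA and RNA. Slc25a33 read 420, 332, 363 and 411 in 8-cell embryos and 971, 802, 1051 and 908 in blastocysts, all above the 8-cell arrays (1.25, SE 0.13, adjusted p = 1.78e-05). Slc25a36 read 7269, 6852, 7488 and 7998 and then 3214, 3867, 3907 and 3391, all below (-1.04, SE 0.12, adjusted p = 2.96e-05). The 2 other probe sets of Slc25a36 gave -3.03 (SE 0.16) and -2.43 (SE 0.26), the mean over its probe sets gave -2.17, and spike-in scaling gave -0.69. Slc25a33 changed by 2.30 relative to Slc25a36, or by 4.29 without the _x_at, _s_at and _a_at probe sets. With both genes separated in opposite directions, the exact permutation p = 0.0286 (adjusted p = 0.0286) was fixed at the floor.

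The remaining cofactor carriers differed by less than 1 log2 unit on the probe set used. Slc25a26, which imports the methyl donor S-adenosylmethionine, went from 416 ± 39.0 to 681 ± 65.4 (0.69, SE 0.12, adjusted p = 0.000662; 0.42 with quantile and 1.04 with spike-in scaling). Slc25a16, linked to coenzyme A, went from 803 ± 66.7 to 1049 ± 129 (0.37, SE 0.13, adjusted p = 0.0268) but was 0.73 with spike-in scaling and did not pass with quantile scaling (0.17, adjusted p = 0.249) or without 8-cell replicate 1 or blastocyst replicate 2, 3 or 4 (adjusted p = 0.0544 to 0.0730). Slc25a32, which carries folate and the flavin FAD, went from 726 ± 108 to 468 ± 57.4 (-0.61, SE 0.15, adjusted p = 0.00444) and did not pass with spike-in scaling (-0.26, adjusted p = 0.388). Slc25a51, the NAD carrier, did not pass on its brightest probe set (1381 ± 190 and 1343 ± 130; -0.04, SE 0.13, adjusted p = 0.828). Its other probe sets were lower, at -0.76 and -1.47 (adjusted p = 0.000320 and 7.71e-05). Slc25a42, a carrier of coenzyme A, was at 0.30 (SE 0.18, adjusted p = 0.155) on its brightest probe set and at -1.66 (SE 0.22) on a dimmer one. Slc25a17, the peroxisomal member, did not overlap between stages (304 ± 22.2 and 366 ± 20.1) but did not pass (0.26, SE 0.11, adjusted p = 0.0557), though it did in 5 other settings (adjusted p = 0.0294 to 0.0446).

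Of the uncoupling proteins and their relatives, which let protons or other small ions back across the membrane, 3 were tested. Slc25a14 read 475, 288, 281 and 264 in 8-cell embryos and 1441, 2027, 1518 and 1225 in blastocysts, a rise without overlap (2.21, SE 0.22, adjusted p = 1.08e-05). Slc25a30 read 206, 115, 193 and 170 and then 106, 84.9, 104 and 157, and its stages overlapped. It passed narrowly (-0.54, SE 0.21, adjusted p = 0.0447) and did not pass in 12 of 20 other settings. Slc25a14 changed by 2.75 relative to Slc25a30 (exact permutation p = 0.0286, adjusted p = 0.0286). Ucp3, the form of muscle, was dim at 85.9 ± 35.4 and 34.9 ± 4.95 (-0.93, SE 0.24, adjusted p = 0.00616; -0.57 with 64 added, and -0.14 with adjusted p = 0.467 for the mean over its probe sets). Ucp1, the form of brown fat, was under the filter's level on 7 of 8 arrays (4.71 to 39.3), and Slc25a27 on all 8 (15.9 to 28.2).

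Members with other or unsettled substrates were mostly dim. Slc25a46, a protein of the outer membrane that takes part in mitochondrial shape, stood out with 368, 294, 426 and 395 in 8-cell embryos and 2005, 2029, 2195 and 2349 in blastocysts. Each blastocyst array was above each 8-cell array (2.49, SE 0.14, adjusted p = 2.75e-07), and a second probe set gave 2.66. Slc25a45 went from 69.0 ± 26.0 to 110 ± 8.68 (0.62, SE 0.21, adjusted p = 0.0235; 0.41 with 64 added) and did not pass without 8-cell replicate 1 or 4 or without blastocyst replicate 1 or 3 (adjusted p = 0.0530 to 0.0627). The other 5 tested members (Slc25a34, Slc25a35, Slc25a47, Slc25a48 and Slc25a53) had differences of -0.13 to 0.45 and did not pass. Slc25a2 and Slc25a54 were not tested, with signals of 3.11 to 42.5 and 5.30 to 24.5.

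Of the tested members, 19 had a further tested probe set. In 10 of these each other probe set had the same call as the one used, and in 1, Slc25a25, a probe set had the opposite call. Among all single-symbol probe sets past the filter 68.9% passed. The widest gaps between probe sets of a gene were in Slc25a12, Slc25a44 and Slc25a25. The cause was not tested. The RNA was amplified from small samples, and the 3' minus 5' difference of the Actb control probe sets moved with the stage, at 2.23 to 2.68 log2 units on the 8-cell arrays and 0.69 to 0.92 on those of blastocysts. Its part in the differences of single probe sets was not tested. The 8-cell signals were deposited with 1 decimal and the blastocyst signals with more, so the authors' handling and the stage cannot be told apart.

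**Figure D4:**
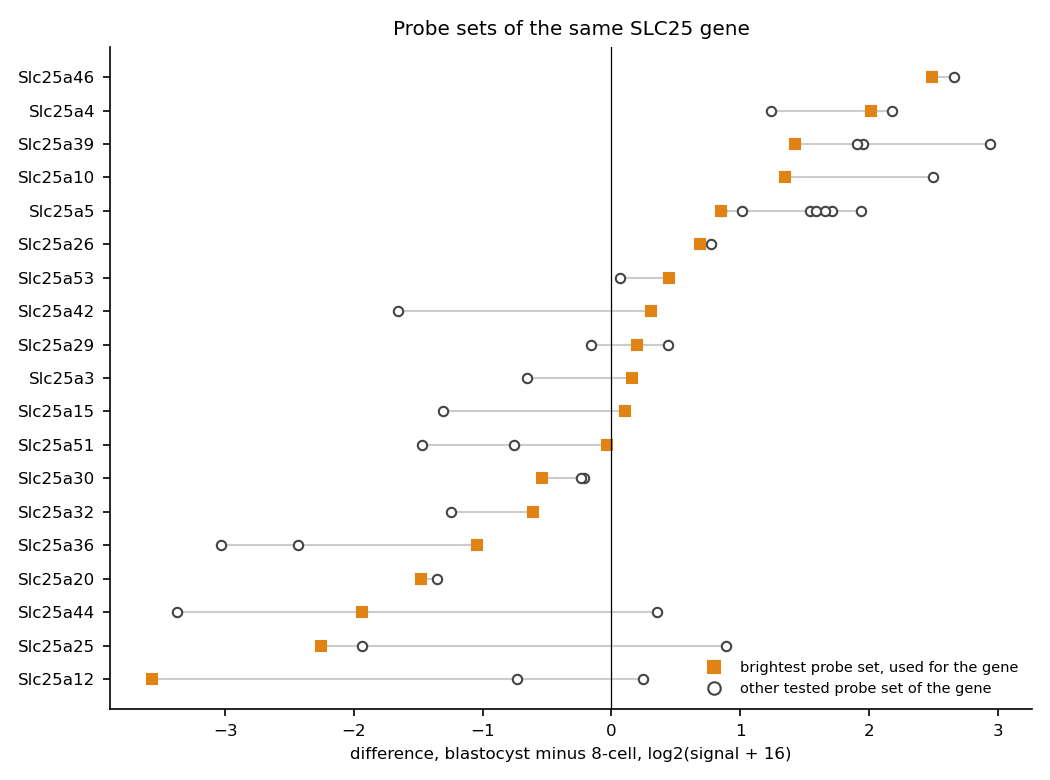
Difference between blastocyst and 8-cell embryos on the log2(signal + 16) scale (x axis) for the 19 tested SLC25 genes with more than 1 tested probe set; squares are the brightest probe set, open circles the others. The 8 probe sets of Slc25a5 and the 4 of Slc25a39 all lie above 0, while those of Slc25a12, Slc25a25 and Slc25a44 spread across it.

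Carriers are made in the cytosol and inserted into the inner membrane by the TOM complex, small TIM chaperones and the TIM22 complex. Of 15 tested genes of this route 8 fell, 3 rose and 4 did not pass, with a median of -0.33 against 0.02 over all tested genes. The share that passed, 73.3%, lay near the 71.7% of all genes, and without the _x_at, _s_at and _a_at probe sets 5 fell and 1 rose. The largest differences were those of the small chaperone genes Timm8a2 (-3.38, SE 0.12) and Timm8a1 (-1.26, SE 0.13) and of the TIM22 complex genes Timm29 (-1.57, SE 0.14) and Timm22 (-1.07, SE 0.11).

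Of 21 tested other transport genes of the mitochondrion 15 were higher, 4 lower and 2 did not pass (median 0.88). The share that passed was 90.5%, against 71.7% of all genes (37.5% higher and 34.2% lower). Whether the list differs from other genes was not tested. Micu2, a regulator of the calcium uniporter, rose by 2.45 (SE 0.14) and Letm1, a cation exchanger, by 2.13 (SE 0.16). Mpc1, a subunit of the mitochondrial pyruvate carrier, fell from 7063 ± 422 to 1613 ± 226 (-2.13, SE 0.13), and Letmd1 fell by 1.92 (SE 0.19). The pyruvate carrier, through which pyruvate enters the matrix, belongs to another family. The listed Mpc2 was not among the genes read, so the fall is that of Mpc1 alone.

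Enzymes that work with the carriers were also read. Of 13 tested enzymes of the malate-aspartate, glycerol phosphate, citrate and carnitine shuttles 7 rose, 2 fell and 4 did not pass (median 0.76). The share that passed, 69.2%, lay near the 71.7% of all genes. Mdh1 and Got1, the cytosolic malate dehydrogenase and aspartate aminotransferase of the malate-aspartate shuttle, rose by 2.63 (SE 0.17) and 2.09 (SE 0.16). Of the carriers of that shuttle, Slc25a13 and Slc25a11 rose and Slc25a12 fell (-3.57, SE 0.14). Cpt2 and Crat, which handle acylcarnitines inside the mitochondrion, rose by 4.41 (SE 0.47) and 1.69 (SE 0.12), whereas the carrier Slc25a20 fell. Cpt2 was above the filter's level on 2 of 4 8-cell arrays. It needed its blastocyst arrays to pass the filter, and its rise is not counted as support. Named after its value was seen, Gpd2, the mitochondrial enzyme of the glycerol phosphate shuttle, fell from 17428 ± 1465 to 5964 ± 606 (-1.55, SE 0.12). The mitochondrial Got2 rose by 1.66 (SE 0.14) and Mdh2 was at -0.31 (SE 0.12, adjusted p = 0.0482), also named after their values were seen.

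The stage labels were checked against defining genes. Cdx2, Krt8, Krt18, Gata3 and Eomes were 13.7- to 39.5-fold higher in blastocysts, and Obox6 and Klf17 were 56.4- and 101-fold lower. Sox17 was under the filter's level on all 8-cell arrays (10.6 ± 4.48 against 3363 ± 319), and Oosp1 (614 ± 185 against 17.0 ± 12.9) and Nlrp14 (613 ± 87.7 against a mean of 13.9) were so on all blastocyst arrays. Array medians lay between 47.1 and 56.0, and arrays of a stage correlated at 0.977 to 0.988 over the tested genes against 0.752 to 0.780 between stages. Of 9 measured genes of cumulus and granulosa cells 6 were tested, 1 of them higher and 2 lower. Their summed signal was 6682 to 10427 on the 8-cell arrays and 592 to 680 on those of blastocysts, with Amhr2 (8118 ± 1598 and 282 ± 36.8) the brightest at both stages. Foxl2 was lower as well (174 ± 34.8 and 121 ± 25.8; -0.47, SE 0.17), Cyp11a1 was higher (20.7 ± 19.4 and 48.0 ± 15.0), and the other 6 had means of 8.98 to 55.1. The 4 blood genes summed to 137.8 to 203 and 79.0 to 156, with Cd52 lower (140 ± 23.7 and 29.3 ± 12.6) and Lyz2 higher (22.4 ± 11.8 and 46.1 ± 6.65) among 2 tested. The 6 fibroblast genes summed to 121 to 226 and 224 to 264. Of 3 tested, Thy1 (11.9 ± 7.52 and 111 ± 11.5) and Pdgfrb (11.4 ± 4.31 and 46.7 ± 2.81) were higher, both under the filter's level on all 8-cell arrays. The part of other cells in the results was not tested. With arrays scaled to their hybridisation spike-ins the median difference of all genes moved from 0.02 to 0.34, and 65.4% of the calls over all genes were higher against 52.3%. For the members that setting gave 20 higher and 12 lower, and no member that had passed changed its direction.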

How the data were processed

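Signal was measured on 8 arrays, 4 of 8-cell embryos and 4 of blastocysts, grouped by the stage in their titles. The deposited values are linear signal intensity for 45101 probe sets, and the values show that the authors had scaled each array to a common 2% trimmed mean of 500; for the software, a name was not given in the sources used here. Per the labels' protocols, RNA was amplified from small samples and labelled with biotin. Values became log2(signal + 16). The platform's annotation gave 1 symbol to 34945 probe sets, several to 932 and none to 9160, and 64 controls were left out. Each gene was read by the probe set with the highest mean. Genes whose signal exceeded the array's 40th percentile (28.3 to 35.7) on 4 or more of the 8 arrays were tested with limma (lmFit and eBayes) and Benjamini-Hochberg adjustment, and pairs of carriers by exact permutation. The method was run on simulated data with independent values and few changed genes. That setting is unlike these data, where most genes passed, so the run is no support for the calls here. Alternatives changed scaling, filter, probe set, variance model, added constant, block and arrays. The members, lists and pairs were chosen with earlier results of these data known. All members could be named; from each related list, the 4 called genes with the largest differences were. Same-numbered replicates did not deviate together (correlations of -0.04 to -0.02), so they were not treated as pairs. The analysis used R 4.3.3, limma 3.58.1, Python 3.11.15 and matplotlib 3.10.9. Promoter sequences are from RefSeq, GRCm38.p6.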

Additional observations from a re-analysis of the deposited data

Results flagged for a closer look

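In 11 of the 92 groups of 4 arrays checked over the 46 members, the highest or lowest array stood apart from the others of its stage on the log2 scale. Chance alone gives about 1 in 20 such groups. Replicate 1 of the 8-cell embryos was high for Slc25a14 (475 against 263.8 to 287.6) and Slc25a31 (253.5 against 121.4 to 124.7) and low for Slc25a23 (113.4 against 205.8 to 225.5). Replicate 3 of that stage was low for Slc25a10 (951.4 against 1255 to 1274) and high for the untested Ucp1 (39.3 against 6.6 to 7.7). Among blastocysts, replicate 4 was high for Slc25a10 (3550 against 2816 to 2903) and Slc25a41 (20.59 against 3.091 to 4.18), and replicate 2 was high for Slc25a13 (1312 against 1038 to 1080) and low for the untested Slc25a27 (15.93 against 26.01 to 26.62). Blastocyst replicate 3 was high for Slc25a24 (729.1 against 570.7 to 584), and replicate 1 was low for Slc25a42 (187.5 against 214.6 to 219.5). The stages of each tested member named here except Slc25a42 did not overlap.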

How the results depend on the processing

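Of the 30 members that passed, 25 kept their direction and passed in each other setting in which they were tested (up to 20, of which 8 left out an array), and 5 lost the call in at least 1 (Slc25a16, Slc25a30, Slc25a32, Slc25a45 and Ucp3). None of the 30 reversed. The count of higher members ran from 12 to 20 and that of lower members from 12 to 15. Of the 12 members that did not pass, only Slc25a29 stayed so with its sign in each setting. With the sign kept, calls were gained by Slc25a17 in 5 settings, by Slc25a3, Slc25a42 and Slc25a53 in 2 each, and by Slc25a51 in 1 (-0.76 with the mean over probe sets). With the sign changed, Slc25a15 and Slc25a42 passed as lower with the mean over probe sets (adjusted p = 0.00923 and 0.00247). Slc25a3 passed as lower without the _x_at, _s_at and _a_at probe sets (adjusted p = 0.00511). Differences that reversed were, with quantile scaling, Slc25a17 (-0.017); with median scaling, Slc25a51 (0.024); with spike-in scaling, Slc25a18 (0.015), Slc25a47 (0.19) and Slc25a51 (0.32); with the mean over probe sets, Slc25a15 (-0.60), Slc25a3 (-0.25), Slc25a42 (-0.68) and Slc25a48 (-0.032); and without the _x_at, _s_at and _a_at probe sets, Slc25a3 (-0.66). Leaving out an array each gave ranges that crossed 0 for Slc25a15 (-0.033 to 0.23), Slc25a34 (-0.18 to 0.45), Slc25a35 (-0.14 to 0.17), Slc25a47 (-0.33 to 0.11), Slc25a48 (-0.022 to 0.52) and Slc25a51 (-0.10 to 0.053). Spike-in scaling lowered the count of lower genes from 4541 to 2972. Without the _x_at, _s_at and _a_at probe sets, carrier insertion had 1 higher and 5 lower and other transport 2 lower. The shuttle enzymes had 1 lower in place of 2 with quantile, median or spike-in scaling, with no filter, without those probe sets and with the replicate block, and 1 to 2 on leaving out an array. Replicate numbers did not pair the samples, and with them as a block the members stood at 16 higher and 14 lower, while 0 of the 9 pairs of carriers passed, since the exact permutation test within numbers cannot go below p = 0.125. The cause of these changes was not tested. The number of arrays limits the precision, and members under the filter's level at a stage (Slc25a41, Slc25a37) have a difference set by the added constant.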
